A study of Homo sapiens with 6 samples.

Results

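The SLC25 family comprises the mitochondrial carriers, and its members here were the protein-coding entries of the gene count table whose symbol begins with SLC25A. They made up 48 of the 30230 entries of the table, for 47 gene symbols, because SLC25A6 lies in the pseudoautosomal region and has an entry on X and an entry on Y. RNA-seq had been carried out on polyadenylated RNA from A549 cells, an established line from a human lung adenocarcinoma. The control group (NC) comprised 3 libraries of A549 cells. These cells had received a scrambled siRNA according to the methods, whereas the treatment label of the samples names a control plasmid. The silenced group (siFSCN1) comprised 3 libraries from A549 cells transfected with 1 siRNA against FSCN1, which encodes the actin-bundling protein fascin. The use of a single siRNA and a single cell line limits the silenced group as a model, since an effect of that siRNA on other genes and an effect of FSCN1 loss cannot be told apart. The comparison asked how the transcripts of the carriers differed when FSCN1 was silenced.

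Carriers of this family are small proteins, most of them in the inner mitochondrial membrane, which is otherwise impermeable to charged metabolites. Most carry a few related substrates, often in exchange for one another. ATP made in the matrix leaves as ADP enters, and phosphate enters for ATP synthesis. Citrate leaves for lipid synthesis, and aspartate leaves as part of the malate-aspartate shuttle. The carriers are made on cytosolic ribosomes and inserted by a dedicated import route. A few members sit in other membranes, such as SLC25A17 of the peroxisome and SLC25A46 of the outer mitochondrial membrane. In lung tumour cells they link glycolysis, respiration and biosynthesis.

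The libraries held 27967301 to 36560919 counts each. FSCN1 served to check the labels. Its level was 211, 220 and 212 CPM (counts scaled to library size with the TMM factors of edgeR) in the NC libraries and 18.3, 11.8 and 13.2 CPM in the siFSCN1 libraries, and the fitted level after silencing was 6.75% of that in NC. All 6 epithelial markers examined were present at a mean of at least 1 FPKM (fragments corrected for transcript length and sequencing depth), with a sum of 3117 to 3498 FPKM in NC and 1759 to 2115 FPKM in siFSCN1. KRT7, KRT8 and KRT18 carried this sum and were lower in siFSCN1, as was KRT19, whereas CDH1 went from 9.02 to 9.41 FPKM in NC to 25.9 to 26.7 FPKM in siFSCN1 and EPCAM from 2.8 to 3.34 FPKM to 4.09 to 4.51 FPKM. The 5 alveolar type II markers with an entry stayed under 1 FPKM, summing to 0.33 to 0.52 FPKM in NC and 0.95 to 1.09 FPKM in siFSCN1. Of the 12 fibroblast, endothelial and leukocyte markers with an entry, CD14 alone reached a mean of 1 FPKM, at 2.79 to 2.99 FPKM in NC and 3.86 to 4.82 FPKM in siFSCN1, while PTPRC, which defines leukocytes, was at 0 to 0.01 FPKM. In bulk RNA, fewer cells of a type and less RNA per cell cannot be told apart. The 13 protein genes encoded by mitochondrial DNA took 8.61% to 9.29% of the counts in NC and 12.6% to 12.8% in siFSCN1, and the part of this shift in the values of the nuclear-encoded carriers was not tested.

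Carrier transcripts were mostly lower after FSCN1 silencing, and most of the decreases were moderate. Of the 48 entries, 43 (42 symbols) had enough counts to be tested. At an adjusted p under 0.05 (edgeR quasi-likelihood test, Benjamini-Hochberg over 17076 genes), 24 of the 43 were lower (55.8%), against 33.2% of all genes tested. Another 12 were higher (27.9%), against 35.1% of all genes tested, and 7 did not pass. The median log2 fold change was -0.27 over the tested carriers and 0.031 over all genes tested. Scaling to library totals in place of TMM raised the median of all genes to 0.22 and that of the carriers to -0.080, and then 19 carriers were lower and 15 higher, against 22.4% and 46.7% of all genes. A 2-fold change was uncommon: 2 carriers were at least 2-fold lower (4.65%, against 4.85% of all genes) and 3 at least 2-fold higher (6.98%, against 11.7%). The CPM of the 3 NC and the 3 siFSCN1 libraries did not overlap for 36 of the 43 carriers (83.7%), compared with 71.3% of all genes tested. Of the 36 carriers that passed the test, 28 kept the same call and direction in each alternative analysis that tested them, 19 of them lower and 9 higher.

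**Figure D1:**
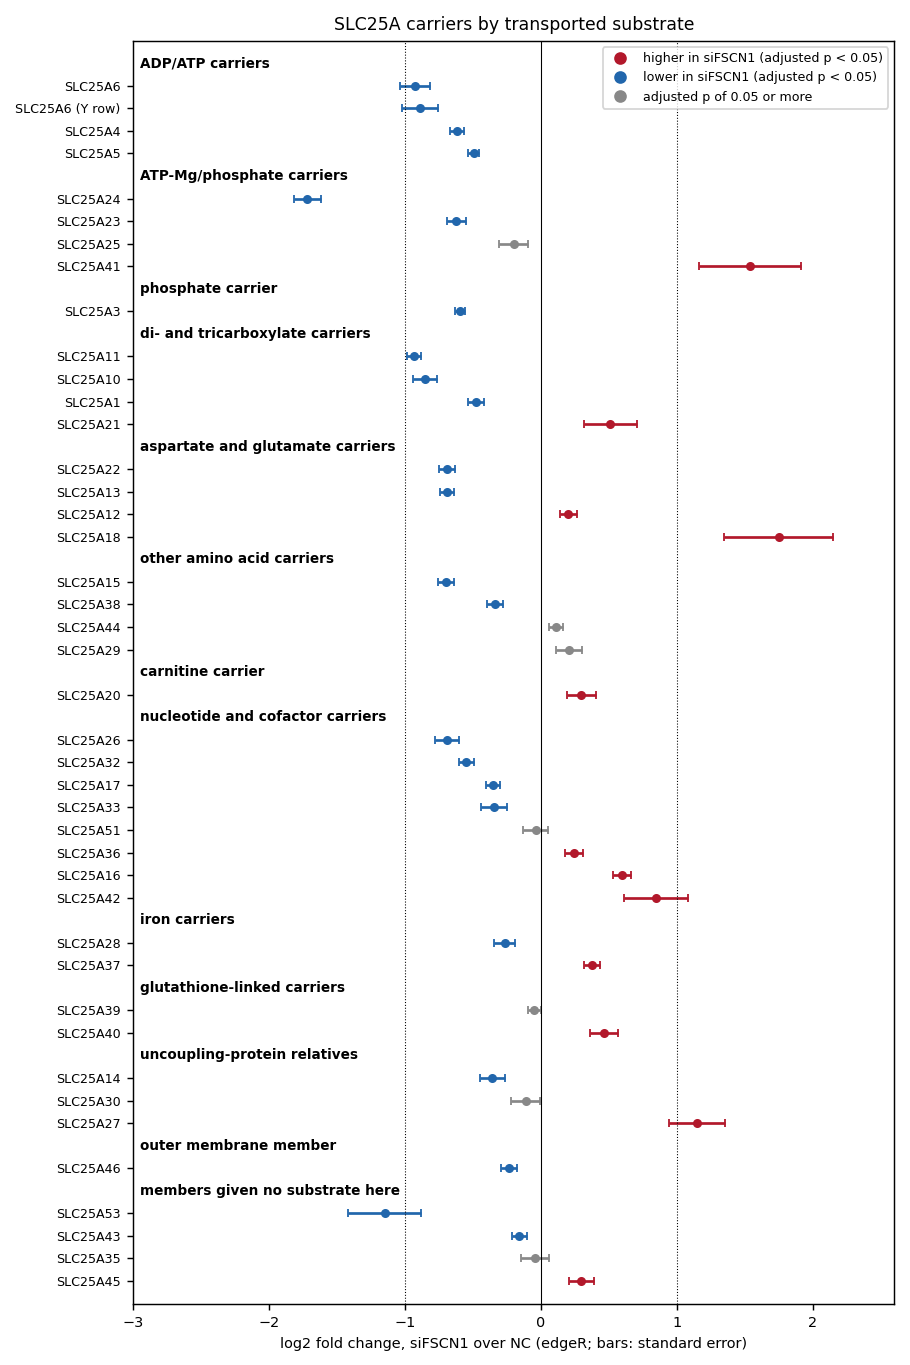
Log2 fold change of 42 of the 43 tested SLC25A entries (horizontal axis, siFSCN1 over NC, edgeR, bars are standard errors, n = 3 libraries a group), arranged by transported substrate. All 4 ADP/ATP carrier entries lie to the left of 0, whereas the coenzyme A carriers SLC25A16 and SLC25A42 and the carnitine carrier SLC25A20 lie to the right.

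The share of carriers that were lower differed with their level. Expression covered a wide range, with 9 symbols at a mean of at least 10 FPKM, 27 between 1 and 10, 5 between 0.1 and 1, and 6 under 0.1. Among the 16 tested carriers with a mean of at least 5 FPKM, 13 were lower (81.2%, against 59.1% of all genes of that level) and 1 was higher (6.25%, against 23.2%). Among the 27 carriers under 5 FPKM, 11 were lower (40.7%, against 21.5%) and 11 were higher (40.7%, against 40.5%). The abundant genes of the whole table were thus shifted downwards too, with a median log2 fold change of -0.22 compared with -0.49 for the carriers of that level. In the lower class the medians were 0.19 for all genes and -0.044 for the carriers. The limit of 5 FPKM was chosen after the values were seen. With a limit of 10 FPKM, 8 of 9 carriers were lower and 0 higher (edgeR), against 65.7% and 19.3% of all genes of that level, and with a limit of 1 FPKM 23 of 37 were lower and 7 higher, against 44.1% and 30.9%. All these shares come from the fit with TMM scaling. With library totals, SLC25A28 and SLC25A43, both above 10 FPKM, lost their lower call. SLC25A39, also above 10 FPKM, and SLC25A44, above 5 FPKM, then passed as higher.

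**Figure D2:**
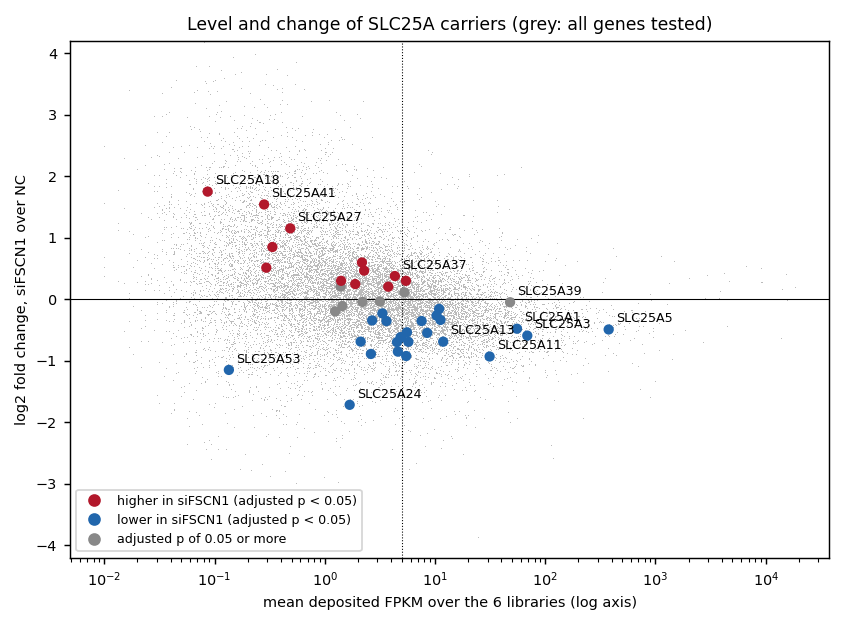
Log2 fold change (siFSCN1 over NC) against the mean deposited FPKM over the 6 libraries (log axis), with all 17076 tested genes as grey points and the tested SLC25A entries as larger points; the dotted vertical line marks 5 FPKM. The 3 carriers that were at least 2-fold higher lie under 1 FPKM, and 13 of the 16 carriers at or above 5 FPKM were lower.

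On the FPKM scale, which divides by the summed exon length, SLC25A5, the ADP/ATP carrier of proliferating cells, had the highest level. Its exons sum to 1555 bases and those of SLC25A3 to 8896 bases, and this divisor sets their order, since their mean CPM in NC were 820 and 883. Its deposited level was 419 FPKM in NC and 334 FPKM in siFSCN1, which was 52.2% ± 0.848 and 50.9% ± 0.457 of the summed FPKM of the family (SD, n = 3 each). The phosphate carrier SLC25A3 followed with 78.9 and 58.7 FPKM, the citrate carrier SLC25A1 with 61.4 and 49.5 FPKM, SLC25A39 with 46.0 and 49.9 FPKM, the 2-oxoglutarate carrier SLC25A11 with 39.4 and 23.2 FPKM, and the aspartate/glutamate carrier SLC25A13 with 14 and 9.73 FPKM. The order of these 6 carriers differed between groups only for SLC25A1 and SLC25A39, whose FPKM ranges overlapped in siFSCN1. In siFSCN1, SLC25A43 (10.93 FPKM), SLC25A38 (10.56 FPKM) and SLC25A28 (9.97 FPKM) had higher means than SLC25A13. The NC libraries had a summed FPKM of the family of 803 ± 10.7 and the siFSCN1 libraries one of 657 ± 34.3 (SD, n = 3 each), a ratio of 0.818, or 0.719 after division by the TMM factors, which the deposited FPKM do not include. Both sums separated the groups without overlap, and the two-sided exact permutation test gave p = 0.1, below which a design of 3 against 3 libraries cannot go.

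The ADP/ATP carriers exchange cytosolic ADP for matrix ATP and are the main outlet of oxidative phosphorylation. All 4 tested entries of this group fell. SLC25A5 (chrX:119468422-119471396, GRCh38) was at 855, 804 and 800 CPM in NC and at 604, 586 and 558 CPM in siFSCN1, a log2 fold change of -0.49 (SE 0.0404, adjusted p = 4.3e-09). Each siFSCN1 library was below each NC library. SLC25A4, the isoform of heart and muscle, was at 34.1, 32.3 and 36.1 CPM in NC and at 22, 22.4 and 22.5 CPM in siFSCN1, and its log2 fold change was -0.62 (SE 0.0531, adjusted p = 8.1e-09). For SLC25A6, a further isoform found in most tissues, the X entry had 12.4, 14.1 and 13.9 CPM in NC and 7.01, 7.86 and 6.42 CPM in siFSCN1. The log2 fold changes were -0.92 for the X entry and -0.89 for the Y entry. These entries describe identical pseudoautosomal copies. Reads that match both copies would have been lost when the authors kept unique alignments. How the remaining reads were divided between the entries is uncertain, although both entries decreased. The level of SLC25A6 may thus be too low, and sums, shares and ratios that include it carry that limit. Processed pseudogenes of SLC25A5 took few reads, at most 20 counts over the 6 libraries for any of them, but reads that also match such copies were lost when the authors kept unique alignments. The ADP/ATP carriers together held 54.1% ± 0.693 of the family's summed FPKM in NC, compared with 52.4% ± 0.547 after silencing (SD, n = 3 each), without overlap (two-sided exact permutation test, p = 0.1). SLC25A31, the ADP/ATP carrier of the testis, had no entry in the table.

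SLC25A3 brings phosphate into the matrix for ATP synthesis. It was at 894, 889 and 867 CPM in NC and at 604, 586 and 567 CPM in siFSCN1, a log2 fold change of -0.59 (SE 0.0369, adjusted p = 9.8e-11). The groups did not overlap.

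The ATP-Mg/phosphate carriers, which adjust the adenine nucleotide content of the matrix, most of them in response to calcium, differed most among themselves. SLC25A24, the carrier known as SCaMC-1 (chr1:108134043-108200849, minus strand, GRCh38), showed the largest decrease of the tested family members in this fit. It was at 19.2, 21.1 and 23.4 CPM in NC and at 6.08, 6.5 and 6.83 CPM in siFSCN1. All 3 siFSCN1 libraries were far below the lowest NC library, and the fitted level was 30.4% of that in NC, a 3.29-fold decrease (log2 fold change -1.72, SE 0.101, adjusted p = 4.2e-11). Exons of other genes on the opposite strand overlap 20.2% of its exonic length, and the strand setting of the counting was not given in the sources used here. SLC25A23 had 36.3, 34.5 and 34.6 CPM in NC and 26.2, 19.8 and 22.5 CPM in siFSCN1, and its log2 fold change was -0.62 (SE 0.0731, adjusted p = 5.4e-07). SLC25A25 did not pass the test (log2 fold change -0.20, adjusted p = 0.107), whereas its antisense RNA SLC25A25-AS1, with 4.15, 4.60 and 5.61 CPM in NC and 12.7, 12.9 and 12.8 CPM in siFSCN1, rose with a log2 fold change of 1.41 (adjusted p = 7.3e-09). Opposite-strand exons, including those of SLC25A25-AS1, overlap 15.5% of the exonic length of SLC25A25. SLC25A41 was higher, but from 10, 7 and 7 counts in NC to 33, 27 and 20 counts in siFSCN1 (log2 fold change 1.54, SE 0.374, adjusted p = 0.00138).

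**Figure D3:**
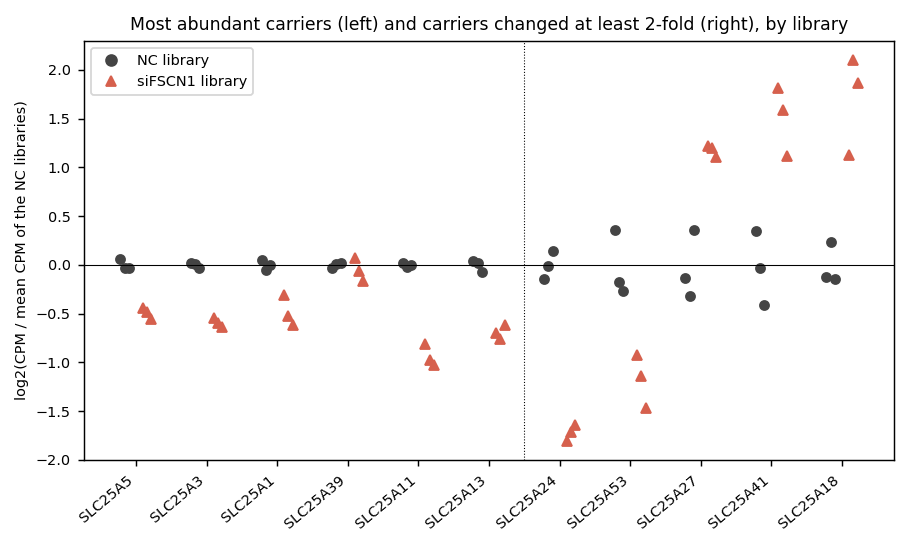
CPM of each library relative to the mean of the 3 NC libraries on a log2 scale, for the 6 carriers of highest FPKM (left of the dotted line) and the 5 carriers changed at least 2-fold (right). Circles are NC libraries and triangles siFSCN1 libraries, and SLC25A39 is the one carrier shown whose groups overlap.

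Carriers of di- and tricarboxylates connect the citric acid cycle with the cytosol. SLC25A11 exchanges 2-oxoglutarate for malate and is the partner of the aspartate/glutamate carriers in the malate-aspartate shuttle. It was at 124, 121 and 122 CPM in NC and at 69.9, 62.5 and 60.4 CPM in siFSCN1, so that 52.4% of the NC level was left (log2 fold change -0.93, SE 0.0514, adjusted p = 1.8e-11). SLC25A10, the dicarboxylate carrier for malate and succinate, was at 17.3, 18.8 and 20.0 CPM in NC and at 11.2, 9.84 and 10.1 CPM in siFSCN1, a log2 fold change of -0.85 (SE 0.0908, adjusted p = 1.5e-07). A readthrough gene on the same strand shares 46.6% of its exonic length, which makes its counts uncertain. The citrate carrier SLC25A1 was at 160, 149 and 155 CPM in NC and at 124, 107 and 101 CPM in siFSCN1, without overlap (log2 fold change -0.48, SE 0.0592, adjusted p = 9.9e-07). SLC25A1P5, a processed pseudogene of SLC25A1 with 55 counts in all, was also lower, with a log2 fold change of -1.45 (adjusted p = 0.0116). SLC25A21, the carrier of oxoadipate in lysine breakdown, was higher in the same fit, with 34, 39 and 49 counts in NC and 63, 66 and 68 in siFSCN1 (log2 fold change 0.51, adjusted p = 0.0289). This call was lost with DESeq2, without a filter on low counts, and when any of 5 of the 6 libraries was left out. The antisense RNA SLC25A21-AS1 rose with a log2 fold change of 1.14 (adjusted p = 1.7e-05). Opposite-strand exons, those of PAX9 and SLC25A21-AS1 together, overlap 37.2% of the exonic length of SLC25A21.

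The aspartate and glutamate carriers divided into pairs that went in opposite directions. SLC25A13 (citrin, the isoform typical of liver) and SLC25A12 (aralar, typical of muscle and brain) both export aspartate in exchange for glutamate. SLC25A13 (chr7:96120220-96322147, minus strand, GRCh38) was at 67.2, 66.5 and 62.4 CPM in NC and at 40.3, 38.5 and 42.6 CPM in siFSCN1, with no overlap (log2 fold change -0.69, SE 0.0537, adjusted p = 2.1e-09). SLC25A12 (chr2:171783405-171999859, minus strand, GRCh38) was at 23.4, 27.6 and 25.2 CPM in NC and at 28, 29.9 and 29.7 CPM in siFSCN1. The lowest siFSCN1 library lay just above the highest NC library, the log2 fold change was 0.20 (SE 0.0594, adjusted p = 0.00572), and the call was lost without NC replicate 1, where the value was 0.14. The glutamate carrier SLC25A22 was at 36.1, 41.4 and 40.1 CPM in NC and at 24.0, 23.7 and 25.1 CPM in siFSCN1 (log2 fold change -0.69, SE 0.0575, adjusted p = 5.0e-09). Its counterpart SLC25A18 was scarce, with 6, 7 and 7 counts in NC and 17, 32 and 28 counts in siFSCN1, and was 3.36-fold higher (log2 fold change 1.75, SE 0.400, adjusted p = 0.00084).

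For SLC25A13, SLC25A12 and SLC25A24, the sequence before a RefSeq start is shown on the gene's own strand, 5′ to 3′. Any stretch that an annotated exon covers was left out. For each of these genes that start lies inside the gene span given above, not at its outer end. The printed SLC25A13 stretch ends 49 bases before its start. Capitals mark a match to the E-box letters CACGTG, which read the same on either strand. The windows are those of chr7:96322148-96322348 for SLC25A13, chr2:171894245-171894494 for SLC25A12 and chr1:108192836-108193085 for SLC25A24, all on the minus strand of GRCh38.p14 (RefSeq).
SLC25A13: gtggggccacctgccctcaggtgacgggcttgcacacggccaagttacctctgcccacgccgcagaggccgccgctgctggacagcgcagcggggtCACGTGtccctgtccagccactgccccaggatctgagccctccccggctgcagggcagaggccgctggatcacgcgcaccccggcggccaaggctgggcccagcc
SLC25A12: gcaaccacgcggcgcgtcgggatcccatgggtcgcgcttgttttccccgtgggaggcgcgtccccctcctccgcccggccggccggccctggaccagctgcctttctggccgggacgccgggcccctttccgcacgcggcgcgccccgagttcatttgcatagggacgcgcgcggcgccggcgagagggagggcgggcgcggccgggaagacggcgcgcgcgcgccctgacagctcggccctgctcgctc
SLC25A24: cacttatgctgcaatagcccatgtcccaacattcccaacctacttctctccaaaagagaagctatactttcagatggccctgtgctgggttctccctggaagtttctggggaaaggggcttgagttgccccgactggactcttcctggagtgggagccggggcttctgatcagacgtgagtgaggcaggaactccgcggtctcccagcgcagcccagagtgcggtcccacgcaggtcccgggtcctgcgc

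The SLC25A13 stretch holds 1 E-box match. The printed stretches are shorter than the windows of 300 bases counted next, in which SLC25A13 also held the CCAAT letters and SLC25A24 held the ETS letters at its other RefSeq start. Such windows were found for 35 of the 42 tested symbols and were searched on both strands for 4 motifs of factors known at genes of mitochondrial proteins. The ETS letters CCGGAAG occurred in 38.1% of the 21 lower carriers and in 11.1% of the 9 higher carriers, compared with 21.6% of the tested protein-coding genes with a window and 12.2% of all promoters. CACGTG occurred in 28.6% and 11.1%, compared with 12.5% and 8.77%. The CCAAT letters occurred in 57.1% and 55.6%, compared with 43.0% and 39.7%. The NRF1 letters GCGCATGCG had no match in either set of carriers, while 4.08% of the tested protein-coding genes and 2.34% of all promoters held them. These letter matches describe the windows and are not evidence of binding.

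Of the other amino acid carriers, SLC25A15 and SLC25A38 were lower. SLC25A15, the ornithine carrier of the urea cycle, was at 27.8, 29.1 and 27.6 CPM in NC and at 17.6, 16.7 and 17.8 CPM in siFSCN1 (log2 fold change -0.70, adjusted p = 4.0e-09). SLC25A38, which supplies glycine for haem synthesis, had a log2 fold change of -0.34. The branched-chain amino acid carrier SLC25A44 (log2 fold change 0.11, adjusted p = 0.0648) and the basic amino acid carrier SLC25A29 (0.20, adjusted p = 0.0636) did not pass the test, although the CPM of their groups did not overlap. Both passed as higher with library totals, upper-quartile scaling, both limma fits on FPKM, a mean FPKM of at least 1 and the stricter count filter, and SLC25A29 also without siFSCN1 replicate 3. SLC25A2, a second ornithine carrier, had 1 count over all libraries and was not tested.

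The carnitine carrier SLC25A20, which brings acylcarnitines into the matrix for fatty acid oxidation, was among the few moderately expressed carriers that were higher. It was at 12.2, 10.6 and 10.1 CPM in NC and at 13.6, 14.7 and 12.1 CPM in siFSCN1. The groups overlapped in the range of 12.1 to 12.2 CPM, the log2 fold change was 0.30 (SE 0.107, adjusted p = 0.0195), and the call was lost when NC replicate 2, NC replicate 3 or siFSCN1 replicate 2 was left out (0.26, 0.23 and 0.22).

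Carriers of nucleotides and cofactors showed both directions, with 5 lower, 3 higher and 1 that did not pass among the 9 tested. The coenzyme A carriers both rose. SLC25A16 was at 15.3, 15.0 and 17.6 CPM in NC and at 23.8, 24.3 and 24.4 CPM in siFSCN1, a log2 fold change of 0.60 (SE 0.0680, adjusted p = 3.6e-07). SLC25A42 was at 1.90, 0.911 and 1.08 CPM in NC and at 2.62, 2.34 and 2.06 CPM in siFSCN1 (log2 fold change 0.85, SE 0.238, adjusted p = 0.00423). In both cases each siFSCN1 library exceeded each NC library.

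The pyrimidine nucleotide carriers again went apart. SLC25A33 was at 14.9, 13 and 13.8 CPM in NC and at 10.8, 11.4 and 10.7 CPM in siFSCN1, a log2 fold change of -0.35 (adjusted p = 0.00365) that lost its call with library totals and with FPKM. SLC25A36 was at 18.8, 21.6 and 22.9 CPM in NC and at 24.6, 25.1 and 25.4 CPM in siFSCN1, a log2 fold change of 0.25 (adjusted p = 0.00323). Neither carrier overlapped between groups. Lower values were also found for SLC25A26, which imports S-adenosylmethionine (log2 fold change -0.69), for SLC25A32, which is linked to folate and flavin supply (-0.55), and for the peroxisomal cofactor carrier SLC25A17 (-0.36). A same-strand gene shares 69.7% of the exonic length of SLC25A32, so its counts are uncertain. The NAD carrier SLC25A51 did not pass the test (log2 fold change -0.038), and its relative SLC25A52, with 1 count, was not tested.

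The mitoferrins, which bring iron into the matrix for haem and iron-sulfur clusters, went in opposite directions. SLC25A37 (mitoferrin-1) was at 32.8, 36.7 and 36.9 CPM in NC and at 43.9, 45.2 and 48.9 CPM in siFSCN1, without overlap (log2 fold change 0.38, SE 0.0593, adjusted p = 1.9e-05). SLC25A28 (mitoferrin-2) was at 25.3, 26.6 and 22.1 CPM in NC and at 22.6, 19.6 and 19.1 CPM in siFSCN1. Its groups overlapped, and the log2 fold change of -0.27 (SE 0.0755, adjusted p = 0.0046) lost its call with library totals, upper-quartile scaling and FPKM.

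Of the glutathione-linked carriers, SLC25A39 was at 199.9, 206 and 207 CPM in NC and at 214, 196 and 182 CPM in siFSCN1. The siFSCN1 libraries fell on both sides of the NC range, and the test was not passed (log2 fold change -0.050, SE 0.0485, adjusted p = 0.373), although scaling to library totals gave 0.14 with a call and leaving out siFSCN1 replicate 1 gave -0.13 with a call. Its share of the family's summed FPKM was 5.74% ± 0.226 in NC, compared with 7.59% ± 0.304 after silencing (SD, n = 3 each; two-sided exact permutation test, p = 0.1). SLC25A40 was at 12.2, 9.84 and 12.2 CPM in NC and at 15.4, 14.7 and 17.3 CPM in siFSCN1, without overlap (log2 fold change 0.46, SE 0.104, adjusted p = 0.000676).

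The relatives of the uncoupling proteins had means under 5 FPKM, and that of SLC25A27 alone was under 1 FPKM. SLC25A27 (UCP4), known mainly from brain, was at 1.04, 0.911 and 1.46 CPM in NC and at 2.65, 2.61 and 2.44 CPM in siFSCN1, a 2.22-fold increase (log2 fold change 1.15, SE 0.206, adjusted p = 7.5e-05) without overlap. SLC25A14 (UCP5) was lower (log2 fold change -0.36), with its call lost under library totals and FPKM, and SLC25A30 did not pass (-0.11, adjusted p = 0.362). The outer membrane protein SLC25A46, which acts in mitochondrial dynamics, had a log2 fold change of -0.23, and its call was lost under library totals, upper-quartile scaling and FPKM.

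Of the members given no substrate here, SLC25A53 fell at least 2-fold. It was at 1.97, 1.37 and 1.28 CPM in NC and at 0.814, 0.698 and 0.559 CPM in siFSCN1, without overlap (log2 fold change -1.15, SE 0.271, adjusted p = 0.00106), and at 0.180 and 0.0900 FPKM it was scarce in both groups. SLC25A45 was higher (log2 fold change 0.30) and SLC25A43 lower (-0.16, adjusted p = 0.0187). For SLC25A43 the groups overlapped, the sign turned under library totals and FPKM, and the call was also lost with upper-quartile scaling, at a mean FPKM of at least 1, and without NC replicate 3 or siFSCN1 replicate 2. SLC25A35 did not pass (-0.044). SLC25A34, SLC25A47 and SLC25A48 had at most 19 counts in a library and were not tested.

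A ratio of 2 carriers within a library does not depend on how libraries are scaled. Of the 10 ratios formed between related carriers, 7 separated the groups without overlap, each with p = 0.1 in the two-sided exact permutation test, the smallest possible, and 0.143 after adjustment over the 10. This test cannot give a p under 0.05 with 3 against 3 libraries. The log2 ratio of SLC25A13 to SLC25A12 moved from 1.37 ± 0.138 to 0.47 ± 0.0924 (SD, n = 3 each), a difference of -0.90. On the scale of FPKM, SLC25A13 was 3.98 to 4.76 times as abundant as SLC25A12 in NC and 2.13 to 2.38 times in siFSCN1. The largest shift in size was 2.33 for SLC25A18 against SLC25A22, which rests on the low counts of SLC25A18. SLC25A24 fell relative to SLC25A23 by 1.08 and SLC25A33 relative to SLC25A36 by 0.59 on the log2 scale. SLC25A37 rose relative to SLC25A28 by 0.65, SLC25A40 relative to SLC25A39 by 0.52 and SLC25A5 relative to the summed SLC25A6 entries by 0.42. The last of these ratios uses SLC25A6 counts that may be incomplete. The remaining 3 ratios overlapped between groups, with differences of -0.12 for SLC25A4 to SLC25A5 (exact permutation p = 0.3), 0.30 for SLC25A42 to SLC25A16 and -0.084 for SLC25A11 to SLC25A10 (exact permutation p = 0.4 for both).

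**Figure D4:**
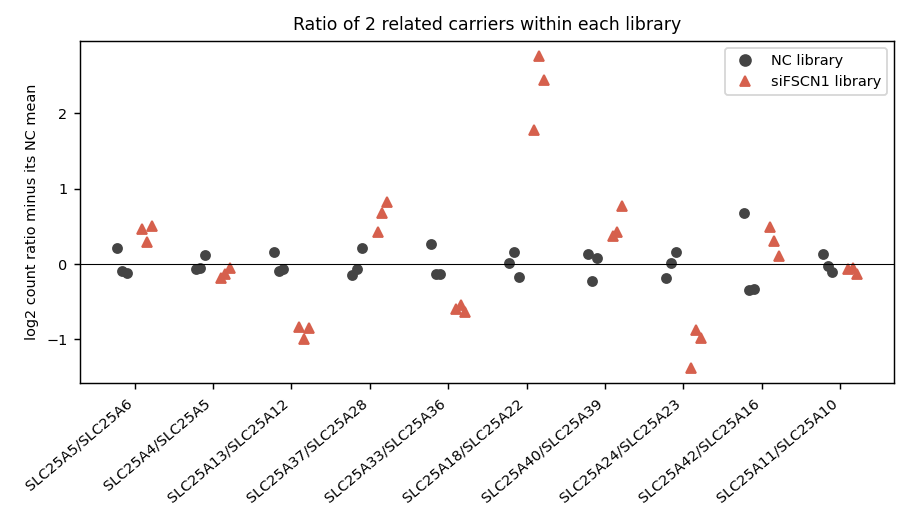
Log2 ratio of the counts of 2 related carriers within each library, after subtraction of the mean over the NC libraries (vertical axis); circles are NC libraries and triangles siFSCN1 libraries, n = 3 each. The SLC25A13/SLC25A12 and SLC25A24/SLC25A23 ratios of the siFSCN1 libraries lie below all NC libraries, and those of SLC25A4/SLC25A5 and SLC25A11/SLC25A10 overlap.

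Genes that act beside the carriers were examined as 5 lists, each read against the 33.2% of all genes that were lower, the 35.1% that were higher and the median of 0.031 over all genes. Of the 4 tested carriers under other symbols, 3 were lower and 1 was higher (median log2 fold change -0.32). UCP2, which exports C4 metabolites from the matrix, had a log2 fold change of -0.58, the outer membrane proteins MTCH1 and MTCH2 had -0.39 and -0.24, and the scarce UCP3 had 1.35. Of the 13 genes for the import of carriers, 9 were lower, 0 higher and 4 did not pass (median -0.29). The import pore subunit TOMM40 was at 363, 364 and 371 CPM in NC and at 179, 170 and 162 CPM in siFSCN1 (log2 fold change -1.10), and the small chaperones TIMM10 and TIMM13, which guide carriers across the intermembrane space, had -0.88 and -0.80. With library totals, under which 22.4% of all genes were lower and 46.7% higher, 5 of these import genes were lower and 1 was higher.

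Of the 21 other mitochondrial transporters, 15 were lower, 5 higher and 1 did not pass (median log2 fold change -0.40). The cation exchanger LETM1 (log2 fold change -1.53), the serine transporter SFXN1 (-1.05) and the outer membrane channel VDAC1 (-1.01) were each below every NC library in all 3 siFSCN1 libraries. The largest rises were 0.67 for MICU3, a regulator of the calcium uniporter, 0.38 for the pyruvate carrier subunit MPC1 and 0.32 for SFXN2. The means of MICU3 and SFXN2 were under 1 FPKM in both groups.

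Of the 32 enzymes that supply or use the carried metabolites, 17 were lower, 9 higher and 6 did not pass (median log2 fold change -0.16). The mitochondrial aspartate aminotransferase GOT2, which works with SLC25A11 and the aspartate/glutamate carriers, had a log2 fold change of -0.68, the coenzyme A synthesis kinase PANK1 -0.62 and the first enzyme of haem synthesis, ALAS1, -0.59. Pyruvate carboxylase (PC) had 0.63, and CPT2 and CRAT, which act on the acylcarnitines and carnitine esters that SLC25A20 carries, had 0.57 and 0.46. Of the 12 regulators of mitochondrial genes, 6 were lower, 2 higher and 4 did not pass (median -0.16), with TFAM, which packages mitochondrial DNA, at -0.84, NRF1 at -0.61, ESRRA at -0.41, PPARA at 0.82 and PPARGC1A at 0.71. PPARA, at means of 0.197 and 0.39 FPKM in NC and siFSCN1, and PPARGC1A, at 0.47 and 0.863 FPKM, were scarce. With library totals, 10 of the partner enzymes were lower, against 22.4% of all genes, and 4 of the regulators were higher, against 46.7%.

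Many genes of these lists are abundant, and of all genes with a mean of at least 5 FPKM 59.1% were lower and 23.2% higher, with a median log2 fold change of -0.22. At that level, 7 of 11 import genes were lower and 0 higher in the edgeR fit (median -0.29), as were 9 and 1 of 11 other mitochondrial transporters (median -0.43). Of the partner enzymes at that level, 15 of 22 were lower and 4 higher (median -0.20), and of the regulators 5 of 6 were lower and 0 higher (median -0.26). All 3 carriers under other symbols at that level were lower.

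**Figure D5:**
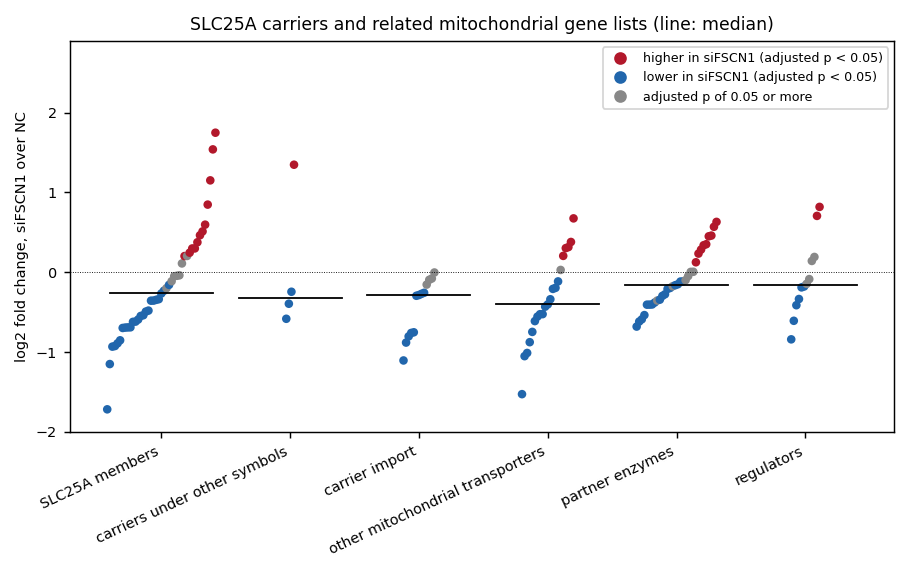
Log2 fold change (siFSCN1 over NC, vertical axis) of each tested gene of the SLC25A family and of the 5 related lists, with a horizontal line at each median. The medians lie between -0.16 and -0.40, and the import list holds no gene that was higher.

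Besides the protein-coding entries, the table held 13 SLC25A entries of pseudogenes and long non-coding RNAs. SLC25A5-AS1, whose exons overlap 13.2% of the exonic length of SLC25A5 on the opposite strand, was lower with a log2 fold change of -0.45 (adjusted p = 0.00438), whereas SLC25A25-AS1 and SLC25A21-AS1 were the antisense entries that rose. Pseudogene entries other than SLC25A1P5 had too few counts for a test.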

How the data were processed

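RNA-seq of A549 cells was analysed in 3 NC and 3 siFSCN1 libraries, grouped by their titles, which also give the replicate numbers. The authors deposited raw counts per gene and FPKM per gene. For both, per the study's methods, the authors trimmed reads with the FASTX Toolkit, aligned them to GRCh38 with HISAT2 allowing 4 mismatches and used uniquely mapped reads, while the submitters' processing notes name TopHat2 and bcl2fastq. How genes were counted, whether strand was used and which annotation release served were not given in the sources used here.

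The deposited counts were filtered with filterByExpr, scaled by TMM and compared with the quasi-likelihood test of edgeR 4.0.16 (R 4.3.3) over 17076 genes with no covariate and Benjamini-Hochberg adjustment, whereas the authors used DESeq2. The standard error (SE) given is the absolute log2 fold change divided by the square root of the F statistic of the edgeR test. The script was tested on simulated data. CPM are counts scaled to library size after TMM. Deposited FPKM, which are scaled to library depth and not by TMM, were used for levels between genes. Ratios within a library were taken on counts plus 0.5. Positions, exon overlaps and lengths came from GENCODE v44, and promoters from RefSeq GRCh38.p14.

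The members, the gene lists and the tests were chosen with earlier results of these data known. Values per library were given for carriers changed at least 2-fold, the 6 of highest FPKM and the 10 pairs, and for a few further genes chosen after their values were seen (SLC25A15, SLC25A20, SLC25A21, SLC25A25-AS1 and TOMM40). From each list at most the 3 largest rises and 3 largest falls were named. Correlations of the deviations of same-numbered libraries were -0.035, 0.040 and -0.084, so the numbers did not pair the libraries. The study describes the libraries as biological replicates. The edgeR p-values set each group difference against the spread between these libraries, moderated across genes. The exact permutation p-values compare the observed difference with those of all regroupings of the libraries. Alternatives were DESeq2 1.42.0, other scalings, other filters, limma 3.58.1 on log2(FPKM + 0.1) and log2(FPKM + 1), a replicate block and leaving out each library. Summing the SLC25A6 entries and the limits on FPKM level were chosen after seeing the data. The siRNA sequence was not analysed here, and 1 tested carrier is counted but not reported here by name.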

Additional observations from a re-analysis of the deposited data

How the results depend on the processing

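The scaling set the size of most shifts. The carriers' median log2 fold change of -0.27 became -0.0798 with library totals, -0.15 with upper-quartile scaling, and -0.10 and -0.0939 with limma on FPKM plus 0.1 and plus 1, where the medians of all genes were 0.22, 0.15, 0.17 and 0.081 compared with 0.031, and it ranged from -0.35 to -0.23 when single libraries were left out. The counts of carriers past the adjusted p threshold ranged from 19 to 25 lower and from 9 to 15 higher over all alternatives, while 19.2% to 36.5% of all genes were lower and 21% to 46.7% higher. DESeq2 gave 24 lower and 11 higher (32.5% and 31.6% of all genes). At least 2-fold higher carriers numbered 0 with limma on FPKM plus 1 and when only genes averaging 1 FPKM or more were kept, and 1 with the stricter count filter, because SLC25A18, SLC25A27 and SLC25A41 are scarce. At least 2-fold lower carriers numbered 1 with library totals, with limma on FPKM plus 0.1 and with genes averaging 1 FPKM or more, and 0 with limma on FPKM plus 1. Signs turned for 5 carriers near 0. With library totals, limma on FPKM plus 0.1 and plus 1, a mean FPKM of at least 1 and upper-quartile scaling, in that order, the log2 fold changes were 0.14, 0.11, 0.0818, 0.0407 and 0.0735 for SLC25A35, 0.15, 0.12, 0.097, 0.0469 and 0.0793 for SLC25A51, and 0.14, 0.11, 0.11, 0.0353 and 0.068 for SLC25A39. SLC25A30 gave 0.0741 with library totals, 0.0545 and 0.0326 with limma, and 0.0056 with upper-quartile scaling. SLC25A43 gave 0.0298 with library totals, and 0.00848 and 0.00788 with limma. Carriers under other symbols had 0 higher genes at a mean FPKM of at least 1. Import genes had 1 higher gene with library totals, both limma fits and upper-quartile scaling, and 5 lower with library totals. Partner enzymes had 10 lower genes with library totals, 9 with each limma fit and 11 with upper-quartile scaling, where 22.4%, 23%, 22.9% and 26.4% of all genes were lower. Regulators had 4 higher genes with library totals, both limma fits and upper-quartile scaling, where 46.7%, 43.8%, 43.5% and 42.1% of all genes were higher, and 1 at a mean FPKM of at least 1 (38.5%). Beyond fewer samples or genes, the cause was not tested. A replicate block gave 24 lower and 12 higher carriers with a median of -0.27 and changed no carrier's call or direction, although the numbers did not pair the libraries. Low counts limit SLC25A18, SLC25A41, SLC25A21, SLC25A27, SLC25A42 and SLC25A53.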
